A study of Mus musculus with 8 samples.

Results

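The 7 genes described here encode the core enzymes of prostaglandin and leukotriene synthesis: Ptgs1, Ptgs2, Ptges, Hpgd, Alox5, Alox5ap and Lta4h. They were chosen by name, from what is known of these pathways and with earlier results of these data known, and are 7 of the 32285 genes in the deposited count matrix. All 7 were measured and passed the filter on low counts. Their UMI counts (unique molecular identifiers, each standing for 1 captured RNA molecule) were compared among myeloid cells of tumor, spleen, bone marrow and blood. The hosts were female C57BL6/J mice carrying MOPC cells, written MPOC tumor in the labels, under the skin of the flank. Each tissue library pooled hashtagged cells of a knockout labelled Genotype_02 and of wild-type mice, all bearing tumors, and no tumor-free animal is among the samples. The cells were sorted without lineage markers, either as Gr1+ cells or as Gr1- cKit+ cells, after their numbers had been evened out over the tissues. Tumors were digested for 45 min at 37 °C before the sort, a step that the labels give for tumor alone.

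Arachidonic acid, released from membrane phospholipids, feeds both pathways. The cyclooxygenases Ptgs1 and Ptgs2 convert it into the precursor of all prostaglandins, the synthase Ptges makes prostaglandin E2 from that precursor, and the dehydrogenase Hpgd begins the breakdown of prostaglandin E2. On the other branch the lipoxygenase Alox5, helped by the membrane protein Alox5ap that presents arachidonic acid to it, makes leukotriene A4, and the hydrolase Lta4h turns this into leukotriene B4, a chemoattractant of neutrophils. Ptgs1 is known as the constitutive isoform and Ptgs2 as the one induced by inflammatory stimuli. Neutrophils and monocytes are known sources of leukotriene B4, and prostaglandin E2 is known to dampen immune responses in tumors.

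The sequences upstream of Ptgs2, Ptgs1 and Lta4h are shown because Ptgs2 rose in tumor neutrophils, Ptgs1 is the other isoform of the same enzyme, and Lta4h fell between the neutrophil stages of marrow. Each run is the 250 bases before a start site in RefSeq (GRCm38.p6, which shares the coordinates of the mm10 build used for the counts), read 5′ to 3′ on the plus strand, on which all 3 genes lie. Ptgs2 starts on chromosome 1 at position 150100031, and the run covers chr1:150099781-150100030. In it, capitals mark the GC box letters GGGCGG and the C/EBP letters TTGCNNAA, the only matches among the 6 motifs searched. The RefSeq start used for Ptgs1 lies within the annotated gene span on chromosome 2 (36216742 to 36258593), so it is not the outermost start, and the run covers chr2:36230176-36230425. The run of Lta4h covers chr10:93453146-93453395, directly before the gene.
Ptgs2: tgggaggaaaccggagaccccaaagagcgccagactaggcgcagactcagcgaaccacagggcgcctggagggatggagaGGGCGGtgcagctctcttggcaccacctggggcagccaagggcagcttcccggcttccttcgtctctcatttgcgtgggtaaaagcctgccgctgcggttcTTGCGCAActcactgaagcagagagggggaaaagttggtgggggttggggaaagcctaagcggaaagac
Ptgs1: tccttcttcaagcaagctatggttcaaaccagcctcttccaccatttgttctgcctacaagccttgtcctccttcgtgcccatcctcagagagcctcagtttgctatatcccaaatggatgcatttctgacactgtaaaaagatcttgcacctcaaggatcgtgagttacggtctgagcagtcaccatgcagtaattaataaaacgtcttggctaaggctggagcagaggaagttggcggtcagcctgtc
Lta4h: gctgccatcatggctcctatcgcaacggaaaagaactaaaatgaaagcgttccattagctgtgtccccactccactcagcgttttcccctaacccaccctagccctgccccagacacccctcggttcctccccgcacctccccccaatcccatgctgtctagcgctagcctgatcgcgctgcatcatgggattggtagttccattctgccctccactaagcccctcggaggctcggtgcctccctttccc
The C/EBP letters of Ptgs2 (TTGCGCAA) lie 69 to 62 bases before the start and the GC box 170 to 165 bases before it. On both strands of all 32817 promoter runs of that length, TTGCNNAA was found in 9.57%, GGGCGG in 32.7%, TGACG (cyclic AMP response half-site) in 17.7%, TATAAA in 12.4%, TGANTCA (AP-1) in 6.75% and CACGTG (E box) in 6.02%. Of the 6 enzymes in the promoter table, GGGCGG was found in Ptgs2, Ptges, Hpgd and Alox5, and TTGCNNAA in Ptgs2 alone. The runs of Ptgs1 and Lta4h held none of the 6 motifs, and the table has no entry for Alox5ap.

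The matrix holds 20012 cells: 462 from tumor, 6105 from spleen, 5682 from bone marrow and 7763 from blood, with a median of 8664 UMIs per cell in tumor, 3461 in spleen, 7999 in marrow and 3132 in blood. Total UMIs per library ran from 7163843 in tumor to 64092351 in marrow. Cells were called immature neutrophils where Camp, Ngp and Ltf made up at least 1% of their UMIs, mature neutrophils where S100a8 and S100a9 made up at least 3% (1% in tumor), classical monocytes by Ly6c2 and Ccr2, nonclassical monocytes by Ace, Adgre4 and Treml4, and tumor macrophages by C1qa, C1qb and C1qc. These rules put 15331 cells (76.6%) into 1 class, left 3698 in none, and set aside 983 that met several. Of all cells, 17960 carried a single hashtag, and the UMIs of such cells were summed per class, tissue and hashtag, giving 78 sums, from 5 to 8 per class in spleen, marrow and blood apart from nonclassical monocytes of blood, with 1, and of marrow, with none, and immature neutrophils of blood, with none. Tumor gave 3 sums of mature neutrophils of 5 to 15 cells each and 4 sums of macrophages of 5 to 7 cells. Single hashtags were rarer there: 217 of the 462 tumor cells had one, with 47 of 91 mature neutrophils and 28 of 90 macrophages. Cells that met several rules numbered 95 in tumor, more than either of these classes. They made up 20.6% of the tumor library, while no other library had more than 6.04%. Levels are CPM, that is, UMIs per 1000000 UMIs of the same cells. The hashtags mark animals, but the labels tie none of them to a mouse or genotype. The p-values thus measure the spread between hashtags, and the genotype mix of each group is not known. Sums of tumor mature neutrophils come from hashtags 3, 4 and 6 alone, and those of tumor macrophages from hashtags 2, 3, 4 and 7. Their mix may therefore differ from that of blood mature neutrophils and blood classical monocytes, which have all 8 hashtags. Each tissue is 1 library, and tissue and library cannot be told apart. Between 0 and 13 cell barcodes were shared by any pair of libraries. The genes of the class rules are not reported as results of their own, but they stand within the summed marker lists of their cell types.

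Over 11 comparisons, 38 of 77 member tests were called (edgeR's quasi-likelihood test, Benjamini-Hochberg adjusted p under 0.05 over 11796 genes). In tumor against blood mature neutrophils 1 enzyme rose and 2 fell. Of all tested genes 21.8% were called there, 11.5% higher and 10.4% lower. In spleen against blood mature neutrophils 1 rose and none fell, where 9.22% of all genes were called, 5.49% higher and 3.73% lower. In marrow against blood mature neutrophils 4 rose and 1 fell, where 40.6% of all genes were called, 15.9% higher and 24.7% lower. In mature against immature neutrophils of marrow 3 rose and 3 fell, where 54% of all genes were called, 26.6% higher and 27.4% lower. Calls were thus common in all genes wherever marrow mature neutrophils were compared, and the enzymes' counts stand beside that.

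None of the 7 enzymes was called in spleen against marrow immature neutrophils, where 0.381% of all genes were called, 0.254% higher and 0.127% lower. There 2 had an unadjusted p under 0.05 in edgeR's test, Ptgs1 and Lta4h, and DESeq2, with 4 at that level, called none. In blood mature neutrophils against blood classical monocytes 3 rose and 3 fell, where 78.5% of all genes were called, 27.8% higher and 50.7% lower, the highest share of the 11 comparisons. In spleen against blood classical monocytes 1 fell, where 19.1% of all genes were called, 15.1% higher and 4.02% lower. In marrow against blood classical monocytes 2 rose and 2 fell, where 45.5% were called, 27.1% higher and 18.5% lower. In nonclassical against classical monocytes of spleen 1 rose and 4 fell, where 24.6% were called, 12% higher and 12.6% lower. In tumor macrophages against tumor mature neutrophils 3 fell, where 18.1% were called, 12.2% higher and 5.89% lower. In tumor macrophages against blood classical monocytes 2 rose and 2 fell, where 26.3% were called, 17.2% higher and 9.11% lower. Comparisons with the same reference cells share those sums.

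The scaling to total UMIs moves whole comparisons in tumor. The median log2 fold change of all genes in tumor against blood mature neutrophils was -0.53 by total UMIs, -1.11 by TMM factors and 0.35 by DESeq2's size factors. Relative to these medians, Ptgs2 stood at 6.25, 6.13 and 5.47, Alox5ap at -0.81, -0.98 and -1.65, and Alox5 at -0.85, -0.97 and -1.67 on the log2 scale. The direction of these 3 differences was therefore the same against each median. In blood mature neutrophils against blood classical monocytes the median of all genes was -0.62 by total UMIs and -0.07 by TMM factors, and in tumor macrophages against tumor mature neutrophils it was 0.86 by total UMIs and 0.15 by DESeq2.

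**Figure D1:**
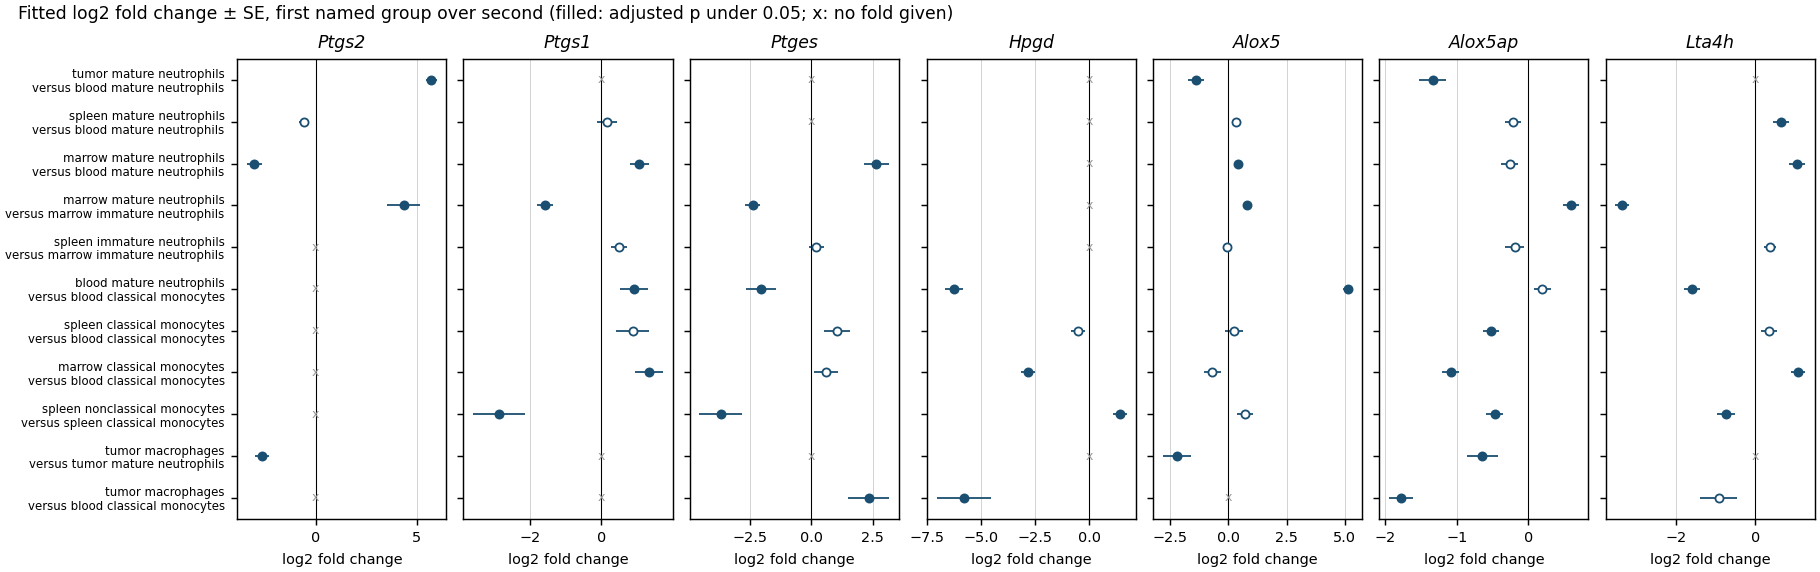
Log2 fold changes (x axis) of the 7 enzymes in each comparison, fitted by edgeR on the hashtag sums, with error bars of 1 standard error and the called ones filled. Ptgs2 in tumor mature neutrophils against blood mature neutrophils stands at 5.72 and Lta4h in mature against immature neutrophils of marrow at -3.39.

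Ptgs2, the inducible cyclooxygenase, was high in myeloid cells of the tumor and low or near 0 in those of the other tissues. The 3 sums of tumor mature neutrophils held 1347, 1089 and 2191 CPM, against a lowest, median and highest of 16.2, 29.2 and 38.5 CPM in the 8 sums of blood mature neutrophils. The groups did not overlap, with means of 1543 ± 577 CPM in tumor (SD, n = 3) and 29.7 ± 7.11 CPM in blood (SD, n = 8). The rise was 5.72 on the log2 scale (SE 0.27, edgeR adjusted p = 2.2e-27), and it lay between 5.02 and 6.30 over 21 other settings. Over all cells of the class, hashtagged or not, the level was 1603 CPM in tumor.

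Single cells show how widely the transcript was spread in tumor. At least 1 Ptgs2 UMI was found in 84.6% of the 91 tumor mature neutrophils (exact 95% interval 75.5 to 91.3%), in 66.7% of the 90 tumor macrophages and in 50.0% of the 40 tumor classical monocytes. The share was 4.43% in spleen, 1.33% in marrow and 6.54% in blood mature neutrophils. T cells, taken as background, had it in 0 of 30 cells of tumor, which allows a share of up to 11.6%, at a median depth of 6039 UMIs, beside 4095 UMIs for tumor mature neutrophils and 21214 UMIs for tumor macrophages. In spleen, 2 of 87 T cells had it (2.30%, exact interval 0.280 to 8.06%) at a median of 7025 UMIs, and in blood 0 of 48, which allows up to 7.40%, at 7258 UMIs. The shares of spleen and blood mature neutrophils lie within these background intervals. The intervals are wide because T cells were few, so the shares alone cannot tell those cells from background. As a level, blood T cells had 0 CPM (exact upper limit 9.24 CPM), below the lowest sum of blood mature neutrophils, 16.2 CPM. Spleen T cells had 2.43 CPM (exact interval 0.294 to 8.77 CPM), and the lowest sum of spleen mature neutrophils, 8.44 CPM, lay within that interval. In blood classical monocytes, with a median of 10777 UMIs per cell, none of the 8 sums held a Ptgs2 UMI. The shares of the tumor myeloid classes lie above that of tumor T cells. Thinned to 1000 UMIs per cell, the shares were 62.9% in tumor mature neutrophils and 35.1% in tumor macrophages, against 2.74% in blood mature neutrophils. The higher share of tumor cells was thus also present at equal depth. Counts per cell were uneven: tumor mature neutrophils had a median of 7 and a maximum of 60 UMIs, and the 10 cells with the most held 39.2% of the class's Ptgs2 UMIs. Tumor macrophages had a median of 4.5 and a maximum of 106 UMIs, and their top 9 cells held 45.7%.

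**Figure D2:**
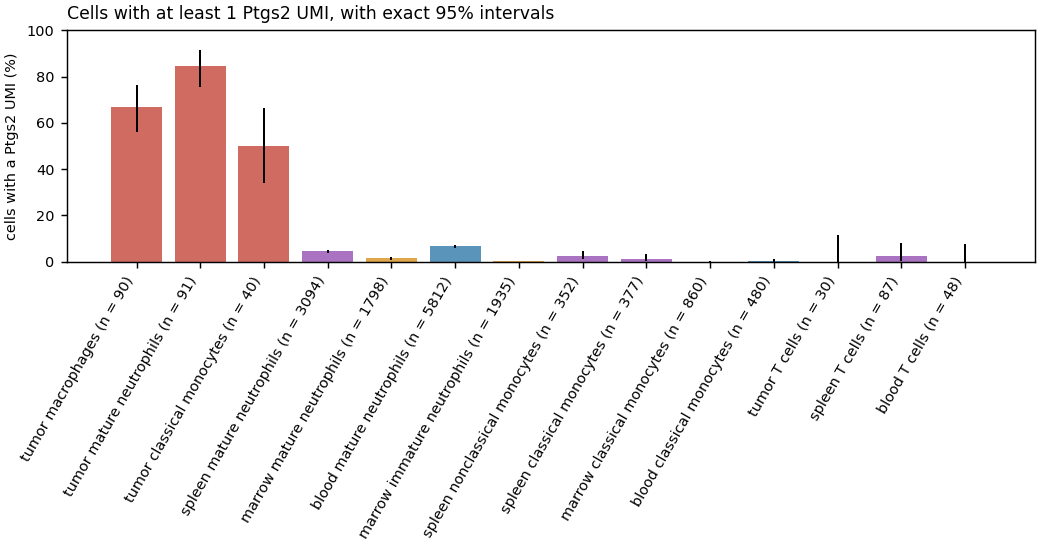
Share of cells with at least 1 Ptgs2 UMI (y axis, percent) in each class and tissue, with T cells at the right as background and exact 95% intervals that cover counting error only. The 3 tumor myeloid classes lie between 50.0% and 84.6%, and no class of another tissue is above 6.54%.

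Tumor macrophages carried less Ptgs2 per UMI than tumor mature neutrophils. Their 4 sums held 485, 314, 150 and 51.2 CPM, all below the lowest sum of tumor mature neutrophils, 1089 CPM. The difference was -2.65 on the log2 scale (SE 0.35, edgeR adjusted p = 9.94e-09). Over all cells, which include those without a single hashtag, the levels were 583 CPM in tumor macrophages and 1603 CPM in tumor mature neutrophils, a ratio of 0.364 (exact interval 0.334 to 0.396), against 0.155 (0.124 to 0.191) in the sums. The direction was thus the same, with a smaller gap over all cells. As whole counts the order was the other way: the 90 macrophages held 1369 Ptgs2 UMIs and the 91 mature neutrophils 877. Their median depths were 21214 and 4095 UMIs per cell. Set against blood classical monocytes, where none of the 8 sums held a Ptgs2 UMI, tumor macrophages had 115 UMIs and were at least 400-fold higher with a floor of 3 counts over the group (edgeR adjusted p = 6.91e-21). Tumor classical monocytes gave only 2 sums, of 75.4 and 37.8 CPM, but 451 CPM over all 40 cells.

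Other gene lists moved with Ptgs2 in these cells. The summed level of 13 genes of the NF-kB and inflammatory list was 55731 CPM in tumor mature neutrophils (sums of 38789 to 76103) and 2789 CPM in blood mature neutrophils (2385 to 3575), and all 12 tested members rose. Among them, Cxcl2, a chemokine that attracts neutrophils, rose by 10.29 on the log2 scale (SE 0.40), and Ccl4, another chemokine, by 8.35 (SE 0.51). The 13 genes of a dissociation stress list summed to 13965 CPM in tumor mature neutrophils (11105 to 17888) and 4185 CPM in blood mature neutrophils (3323 to 4764), and of 11 tested 9 rose and 1 fell. Both lists thus stood higher in the tumor cells, the inflammatory list by more. Macrophage markers summed to 790 CPM in tumor mature neutrophils (201 to 1773), 232 CPM in blood mature neutrophils, with C1qa, C1qb and Ms4a7 at 0, and 6861 CPM in tumor macrophages. Platelet markers summed to 375 CPM in tumor mature neutrophils, with Itga2b, Gp9 and Gp1ba at 0, and 27.8 CPM in blood mature neutrophils. Of these lists, 6 of 7 macrophage markers and 3 of 4 tested platelet markers were called higher in tumor than in blood mature neutrophils. So were 4 of 6 markers of classical monocytes, which summed to 996 CPM in tumor (55.9 to 2177) and 263 CPM in blood (175 to 329). Markers of mature neutrophils summed to 45783 CPM in tumor (33812 to 56728) and 179644 CPM in blood. S100a8 and S100a9, the genes of the class rule, are among them. The rule asked for a share of 3% in blood but 1% in tumor, so it admits tumor cells with a lower sum. The macrophage and classical monocyte lists also hold genes of the class rules. All 5 erythroid markers were at 0 in tumor mature neutrophils and summed to 3735 CPM in those of blood. The part of digestion, of other cells' RNA and of cell state in the level of Ptgs2 was not tested.

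Outside the tumor, Ptgs2 was found chiefly in mature neutrophils, and less in those of marrow than in those of blood. Its sums in marrow had a lowest, median and highest of 0, 3.33 and 5.60 CPM, all below the lowest of blood, 16.2 CPM. Ptgs2 fell by 3.05 on the log2 scale in marrow against blood mature neutrophils (SE 0.37, edgeR adjusted p = 4.2e-10). In spleen the sums had a lowest, median and highest of 8.44, 15.2 and 36.2 CPM, which overlap those of blood, and the difference of -0.60 (SE 0.25) did not pass the test (adjusted p = 0.116). The dissociation stress list also differed between these libraries: all 11 tested members fell in marrow against blood mature neutrophils, and its summed level was 902 CPM in marrow, 3305 CPM in spleen and 4185 CPM in blood. Its part in the marrow value was not tested. Mature neutrophils of blood had 511 Ptgs2 UMIs, blood classical monocytes none in any sum, a level at least 46.8-fold higher (edgeR adjusted p = 3.8e-14). In marrow, mature neutrophils had 23 UMIs and immature neutrophils 1, a ratio of CPM of 62.7 with an exact interval of 10.2 to 2582 (adjusted p = 6.63e-06), and after thinning to 1000 UMIs per cell the difference of 1.93 on the log2 scale was no longer called (adjusted p = 0.084).

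**Figure D3:**
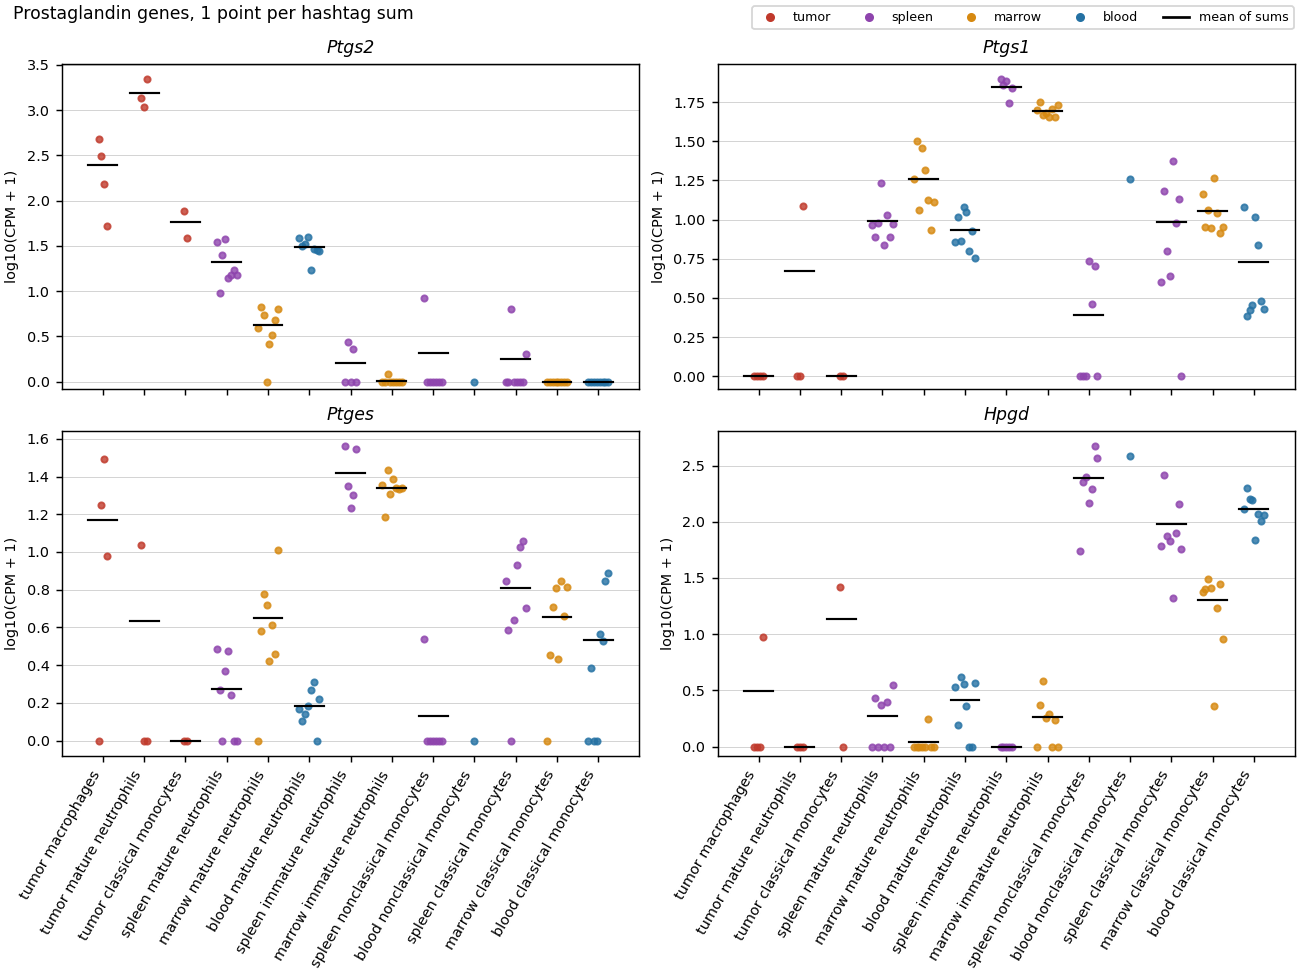
Levels of Ptgs1, Ptgs2, Ptges and Hpgd in each hashtag sum (y axis, log10 of CPM plus 1), by class and tissue, with the mean of the sums as a bar. Ptgs2 is above 1000 CPM in all 3 sums of tumor mature neutrophils, Ptgs1 and Ptges are highest in immature neutrophils, and Hpgd stands in monocytes of blood and spleen.

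Ptgs1, the constitutive cyclooxygenase, had its highest levels in immature neutrophils. In marrow, its lowest, median and highest sums were 7.57, 14.8 and 30.8 CPM in mature neutrophils and 43.9, 48.0 and 55.4 CPM in immature ones, with no overlap. It fell by 1.57 on the log2 scale in the mature cells (SE 0.23, edgeR adjusted p = 1.44e-08). The 5 sums of spleen immature neutrophils had a lowest, median and highest of 54.6, 71.0 and 77.8 CPM, and their difference from marrow, 0.50 (SE 0.23), was not called (adjusted p = 0.499). Among mature neutrophils, Ptgs1 rose by 1.06 in marrow (SE 0.27, adjusted p = 0.000944) against blood sums of 4.69, 6.85 and 11.1 CPM, and the groups overlapped. This call was lost after thinning to 1000 UMIs per cell (0.41, adjusted p = 0.563). Ptgs1 thus ran in the opposite order to Ptgs2 over the immature, marrow mature and blood mature classes.

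Monocytes held little Ptgs1, and the tests rest on few counts. Its lowest, median and highest sums were 7.16, 8.99 and 17.5 CPM in marrow classical monocytes and 1.43, 1.93 and 11.1 CPM in blood classical monocytes, a rise of 1.34 on the log2 scale in marrow (SE 0.38, edgeR adjusted p = 0.003), lost after thinning (0.75, adjusted p = 0.71). In nonclassical monocytes of spleen 3 UMIs were counted, against 35 in classical ones, a ratio of CPM of 0.126 (exact interval 0.0247 to 0.399, adjusted p = 0.00159), a call also lost after thinning and with cells of several rules added, where the fitted difference was -1.04 (adjusted p = 0.145) beside -2.87. Blood mature neutrophils exceeded blood classical monocytes by 0.92 (SE 0.40, adjusted p = 0.0302), a call that ended without hashtag 2, 3, 4 or 7, where the adjusted p ran from 0.064 to 0.115, and after thinning. Tumor myeloid cells gave 4 Ptgs1 UMIs in 91 mature neutrophils and 12 in 90 macrophages, and 0 in the macrophage sums, so no tumor difference was detectable at this depth.

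Ptges, the inducible synthase of prostaglandin E2, was higher in immature than in mature neutrophils of marrow, as Ptgs1 was. In marrow, its lowest, median and highest sums were 0, 2.94 and 9.25 CPM in mature and 14.4, 20.9 and 26.1 CPM in immature neutrophils, with no overlap. It fell by 2.40 on the log2 scale in the mature cells (SE 0.32, edgeR adjusted p = 9.27e-10). Blood mature neutrophils were lower still: marrow had 26 and blood 9 UMIs, a ratio of CPM of 7.59 (exact interval 3.45 to 18.4, adjusted p = 1.61e-05). Of the marrow and blood neutrophils, those of blood thus held the least Ptges and the most Ptgs2.

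The comparisons of Ptges in the other cells rest on few UMIs. Blood mature neutrophils had 9 UMIs and blood classical monocytes 12, a ratio of CPM of 0.206 (0.0766 to 0.532, adjusted p = 0.00202). In spleen, nonclassical monocytes had 1 UMI and classical monocytes 26, a ratio of 0.0564 (0.00138 to 0.343, adjusted p = 0.000764). The 4 sums of tumor macrophages held 0, 16.8, 30.0 and 8.54 CPM, which overlap the 14.4 to 26.1 CPM of marrow immature neutrophils. Tumor macrophages had 6 UMIs and blood classical monocytes 12, a ratio of 5.22 (1.61 to 15.0, adjusted p = 0.0299). This last call ended with TMM factors (adjusted p = 0.064), without hashtag 3 (0.217) and without hashtag 4 (0.2). Tumor mature neutrophils had 1 Ptges UMI in their sums and 6 over all 91 cells, which is 11 CPM (exact interval 4.02 to 23.9), and the test against blood gave an adjusted p of 0.329.

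Hpgd, the enzyme that inactivates prostaglandin E2, was found chiefly in monocytes. Its level over all cells of a class was 334 CPM in nonclassical monocytes of blood (exact interval 303 to 367), 408 CPM in those of marrow (326 to 503) and 218 CPM in those of spleen (206 to 231). In classical monocytes it was 125 CPM in blood, 78.2 CPM in spleen and 17.1 CPM in marrow. The share of cells with at least 1 UMI was 51.1% in nonclassical monocytes of spleen at a median of 11429 UMIs per cell, and 0 of 87 spleen T cells had one, which allows up to 4.15%, at a median of 7025 UMIs. The level was thus higher in nonclassical than in classical monocytes in each of these 3 tissues, and lowest in the classical monocytes of marrow.

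Of these orders, those with enough sums were tested, and marrow nonclassical monocytes had no sum. In spleen, nonclassical monocytes had a lowest, median and highest of 54.1, 226 and 471 CPM and classical monocytes 20.1, 70.1 and 258 CPM, overlapping ranges with a rise of 1.42 on the log2 scale (SE 0.30, edgeR adjusted p = 0.000202). Marrow classical monocytes had 1.28, 23.6 and 30.1 CPM and blood classical monocytes 68.4, 122 and 197 CPM, with no overlap. Hpgd fell by 2.81 there (SE 0.32, adjusted p = 2.02e-11), while in spleen against blood classical monocytes the difference of -0.52 (SE 0.30) was not called (adjusted p = 0.239). Blood mature neutrophils had sums of at most 3.13 CPM, all below those of blood classical monocytes (log2 difference -6.25, SE 0.44, adjusted p = 1.14e-21). Tumor macrophages had 1 Hpgd UMI in their sums and blood classical monocytes 608, a ratio of CPM of 0.0172 (exact interval 0.000434 to 0.096, adjusted p = 0.000208), a call lost after thinning. Against blood classical monocytes, tumor macrophages were thus higher in Ptgs2 and lower in Hpgd.

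In blood, nonclassical monocytes gave 1 sum of at least 20 cells, so the main test was not made. With sums of at least 10 cells there were 6 sums, against 8 of classical monocytes, and Hpgd rose by 1.29 on the log2 scale (SE 0.35, edgeR adjusted p = 0.0101), the only enzyme called where 7.78% of genes were. With cells of several rules added, which are cells that also met a neutrophil rule, there were 4 sums of at least 20 cells. Hpgd was then not called (0.72, edgeR adjusted p = 0.191), and Alox5 was (3.03, adjusted p = 1.59e-10). Alox5 was found chiefly in neutrophils, and the part of neutrophil RNA in this value was not tested. Over all cells the ratio of nonclassical to classical monocytes was 2.67 for Hpgd (exact interval 2.36 to 3.02), 2.77 for Alox5 (1.70 to 4.48) and 0.700 for Alox5ap (0.662 to 0.739). The same 3 ratios in spleen were 2.79, 2.19 and 0.647.

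Alox5, the lipoxygenase that starts leukotriene synthesis, was found chiefly in neutrophils. Its lowest, median and highest sums were 185, 216 and 234 CPM in blood mature neutrophils and 0, 6.30 and 16.7 CPM in blood classical monocytes, with no overlap and a rise of 5.13 on the log2 scale (SE 0.21, edgeR adjusted p = 1.79e-35). Among neutrophils it rose with maturation in marrow: mature cells had 235, 287 and 327 CPM and immature cells 142, 162 and 184 CPM, again without overlap (0.79, SE 0.12, adjusted p = 3.79e-08). Marrow mature neutrophils were also above all sums of blood mature neutrophils, by 0.40 (SE 0.12, adjusted p = 0.00459). In spleen mature neutrophils, with 232, 259 and 319 CPM, the difference from blood of 0.32 (SE 0.12) did not pass the test (adjusted p = 0.0673).

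In the tumor, Alox5 was lower. The 3 sums of tumor mature neutrophils held 69.4, 93.3 and 89.4 CPM, all below the lowest sum of blood mature neutrophils, 185 CPM. It fell by 1.38 on the log2 scale (SE 0.34, edgeR adjusted p = 0.000937), with values between -2.09 and -0.85 over 21 other settings. The call rests on 18 UMIs in tumor, and it ended after thinning to 1000 UMIs per cell (-0.85, adjusted p = 0.566) and with a stricter hashtag margin. Tumor macrophages had 0, 39.3, 15.0 and 0 CPM, below the tumor mature neutrophils (-2.21, SE 0.60, adjusted p = 0.00543), a difference of 8 against 18 UMIs that was lost without hashtag 6 (adjusted p = 0.0657), after thinning and with a 3% S100 rule in tumor.

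Alox5ap, the membrane partner of Alox5, was found in most myeloid cells: at least 1 UMI was present in 98.6% of blood mature neutrophils at a median of 3028 UMIs per cell and 98.3% of blood classical monocytes at 10777 UMIs, against 16.7% of 48 blood T cells at 7258 UMIs. The lipoxygenase and its partner thus differed over the cell types: the blood mature neutrophils and blood classical monocytes stood 5.13 apart on the log2 scale for Alox5, and 0.20 (SE 0.11, edgeR adjusted p = 0.106) for Alox5ap. That difference passed the test with TMM factors (0.76, adjusted p = 1.7e-07) and DESeq2 (0.32, adjusted p = 0.0016). In tumor mature neutrophils the Alox5ap sums were 803, 871 and 604 CPM, against a lowest, median and highest of 1768, 1882 and 2036 CPM in blood. The groups did not overlap, and Alox5ap fell by 1.34 (SE 0.19, adjusted p = 1.17e-08), with values from -2.09 to -1.13 over 21 other settings, all called.

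Tumor macrophages had sums of 440, 595, 315 and 512 CPM of Alox5ap, all below the lowest of blood classical monocytes, 1501 CPM. It fell by 1.78 on the log2 scale (SE 0.17, edgeR adjusted p = 7.1e-15). Against tumor mature neutrophils the difference was -0.64 (SE 0.21, adjusted p = 0.0248), and it missed the threshold in 8 other settings, among them without hashtag 2, 3 or 4 (adjusted p of 0.0540, 0.0614 and 0.194). Both tumor classes thus lay below their counterparts in blood for Alox5ap, while Ptgs2 was above them.

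Outside the tumor, Alox5ap varied by stage and tissue. In marrow it rose in mature neutrophils, with 1464, 1587 and 1662 CPM as lowest, median and highest, against 986, 1032 and 1129 CPM in immature ones (0.59, SE 0.11, edgeR adjusted p = 7.01e-06, no overlap). Marrow against blood mature neutrophils differed by -0.26 (SE 0.11, adjusted p = 0.0579), and with the hashtag as a block the same difference was called (adjusted p = 0.0413). In marrow classical monocytes, with 696, 773 and 880 CPM, Alox5ap fell by 1.08 against blood classical monocytes, with 1501, 1632 and 1809 CPM (SE 0.12, adjusted p = 6.95e-13, no overlap). So the marrow-to-blood step was larger in monocytes than in neutrophils, and the test of that difference gave 0.82 (SE 0.16, adjusted p = 4.52e-05), where 24.8% of all genes were called. Spleen classical monocytes, with 755, 1205 and 1514 CPM, were lower than those of blood (-0.52, SE 0.12, adjusted p = 0.00041), a call lost after thinning (adjusted p = 0.136). Nonclassical monocytes of spleen, with 482, 701 and 1158 CPM, were lower than the classical ones (-0.47, SE 0.12, adjusted p = 0.00204), a call lost with only these 2 groups in the fit (adjusted p = 0.0799).

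**Figure D4:**
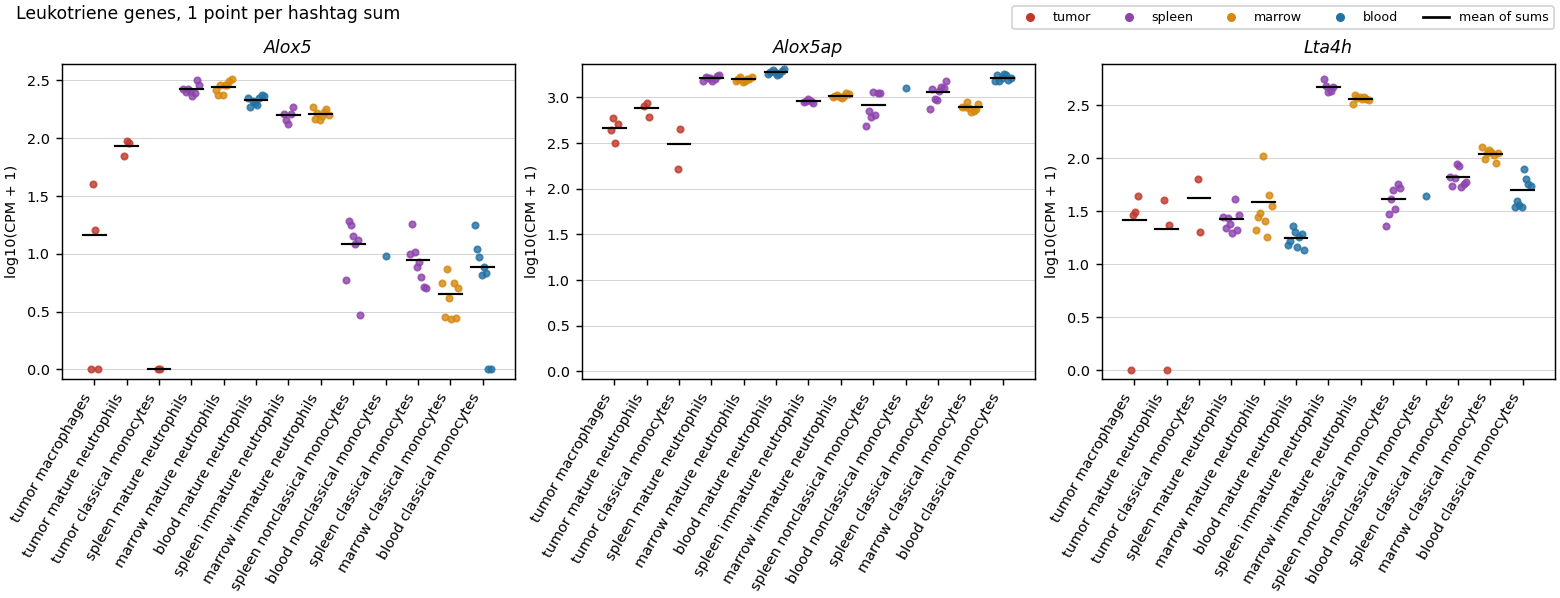
Levels of Alox5, Alox5ap and Lta4h in each hashtag sum (y axis, log10 of CPM plus 1), by class and tissue, with the mean of the sums as a bar. Alox5 separates neutrophils from monocytes, Alox5ap lies lower in the tumor sums than in blood, and Lta4h is highest in the immature neutrophils, with a median of 364 CPM in marrow.

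Lta4h, the hydrolase that makes leukotriene B4, had the largest fall of the 7 enzymes between the neutrophil stages. In marrow its lowest, median and highest sums were 16.9, 28.0 and 104 CPM in mature neutrophils and 320, 364 and 390 CPM in immature ones, with no overlap. It fell by 3.39 on the log2 scale (SE 0.17, edgeR adjusted p = 2.96e-29). Spleen immature neutrophils had 420, 471 and 561 CPM, all above the marrow sums, but the difference of 0.37 (SE 0.16) was not called (adjusted p = 0.411). Lta4h and its partners of the pathway thus went opposite ways in marrow: Lta4h fell in the mature cells and Alox5 and Alox5ap rose.

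Among mature neutrophils Lta4h was higher in marrow and spleen than in blood. Marrow, with the sums just given, and blood, with 12.7, 16.3 and 21.9 CPM, overlapped and differed by 1.06 on the log2 scale (SE 0.20, edgeR adjusted p = 1.33e-05). Spleen, with 18.8, 24.7 and 40.5 CPM, also overlapped blood and was 0.65 higher (SE 0.20, adjusted p = 0.0222). The spleen call was lost with TMM factors, without hashtag 1, 6 or 8 (adjusted p of 0.0567, 0.123 and 0.0816), after thinning and with doubled class thresholds. Markers of immature neutrophils, of which Camp, Ngp and Ltf are part of the class rule, moved with Lta4h in marrow. All 7 were higher in marrow than in blood mature neutrophils. In spleen 4 of the 7 markers were higher than in blood, but not their sum. Their summed level was 6684 CPM in marrow (5595 to 8160), 1595 CPM in spleen (1312 to 2308) and 1609 CPM in blood (1208 to 2534), and their part in the levels of Lta4h, Ptgs1 and Ptges was not tested. Blood mature neutrophils lay below every sum of blood classical monocytes, which had 33.3, 46.3 and 77.8 CPM, with a log2 difference of -1.61 (SE 0.20, adjusted p = 1.9e-11). T cells also carried it, with 67.6 CPM in blood, so the presence of Lta4h is not particular to myeloid cells here.

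In monocytes, Lta4h was higher in marrow than in blood: marrow classical monocytes had 89.5, 110 and 128 CPM, above every sum of blood classical monocytes (1.09, SE 0.17, edgeR adjusted p = 1.51e-07). Nonclassical monocytes of spleen, with 22.1, 40.6 and 56.4 CPM, were lower than the classical ones, with 52.3, 61.3 and 87.9 CPM (-0.74, SE 0.22, adjusted p = 0.00879). This last call was lost with cells of several rules added and with doubled class thresholds, and after thinning the difference was 0.08. In tumor, 12 UMIs in the macrophage sums and 6 in those of mature neutrophils gave no call (adjusted p = 0.606 for tumor against blood mature neutrophils).

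The change between stages was also followed along the share of UMIs from Camp, Ngp and Ltf, the genes of the immature rule, over marrow neutrophils. In 6 bins, from under 0.1% (1026 cells) to 8% and more (1004 cells), Lta4h stood at 30.5, 35, 85.6, 125, 276 and 460 CPM. Ptgs1 went from 14.5 CPM in the lowest bin to 54.9 CPM in the highest, and Ptges from 3.36 to 23.8 CPM. Alox5 took the other course, with 276 CPM in the lowest bin and 139 CPM in the highest, and Alox5ap 1650 and 960 CPM. These are levels pooled over cells. Below the 1% threshold of the class rule the first and second bins were close for Alox5 (276 and 275 CPM) and Ptgs1 (14.5 and 17.0 CPM). For Lta4h the pooled levels were also close, but the median of the hashtag sums was 18.3 CPM in the first bin and 32.2 CPM in the second. The highest Lta4h sum of the first bin was 120 CPM. The medians of Ptgs1 were 11.8 and 16.7 CPM. The pooled levels of these 3 genes moved further over the 4 bins above the threshold. Ptgs2 was 4.14 CPM in the lowest bin and 0 in the highest.

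**Figure D5:**
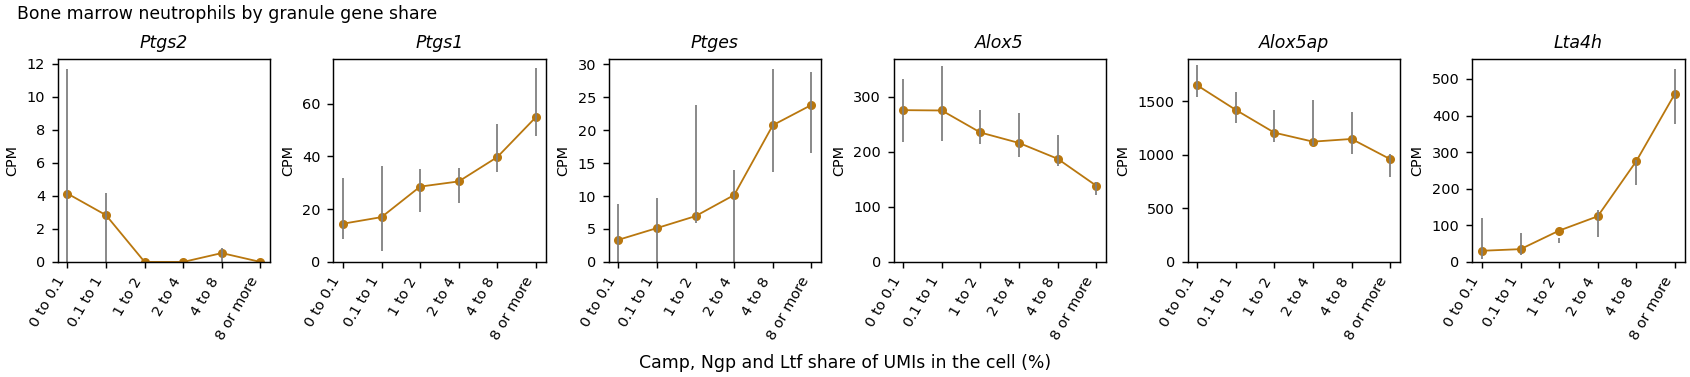
Pooled levels of the enzymes (y axis, CPM) in marrow neutrophils binned by the share of UMIs from Camp, Ngp and Ltf (x axis, percent). Lta4h is 460 CPM in the bin of 8% and more and 30.5 CPM in the bin under 0.1%, and Alox5 is 139 and 276 CPM in these bins.

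Marrow and spleen cells with Kit, an early progenitor marker, and dendritic cells allow a wider view of the same enzymes. Lta4h stood at 120 CPM in 365 Kit-positive marrow cells and 49.1 CPM in 279 Kit-positive spleen cells. Alox5, by contrast, stood at 8.18 CPM in the marrow and 3.86 CPM in the spleen Kit-positive cells. Hpgd stood at 42.8 CPM in 197 spleen dendritic cells and 75.7 CPM in 31 of blood. These levels are of single libraries, with no replicate test.

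Of 58 other genes of these pathways in the matrix 34 were tested, and they were described by 6 lists: release of arachidonic acid, other prostanoid synthases, cysteinyl leukotriene enzymes, transport and breakdown, prostanoid receptors and leukotriene receptors. In tumor against blood mature neutrophils 4 rose and 3 fell, with a median log2 fold change of -0.15 beside -0.53 for all genes. That is 20.6% of the 34, close to the 21.8% of all genes called there. The 3 tested leukotriene receptor genes rose: Cysltr1, a receptor of cysteinyl leukotrienes, by 4.67 (SE 0.68), Ltb4r1, the high-affinity receptor of leukotriene B4, by 2.57 (SE 0.31, edgeR adjusted p = 1.08e-10), and Fpr2, a formyl peptide receptor that also binds lipoxin, by 1.37 (SE 0.32). The exporter Abcc1 also rose, by 3.41 (SE 0.92). Tbxas1, thromboxane synthase, changed by -2.27 (SE 0.48), Ggt5, which converts leukotriene C4, by -2.04 (SE 0.41), and Pla2g7, a secreted phospholipase that cleaves platelet-activating factor, by -1.95 (SE 0.36), all called.

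Between mature and immature neutrophils of marrow 9 of the 34 rose and 9 fell, 52.9% beside 54% of all genes. Pla2g7 rose by 5.29 (SE 0.25), Cyp4f18, an oxidase of leukotriene B4, by 3.11 (SE 0.17), Ggt5 by 2.46 and Tbxas1 by 1.43, and Ptger2, a receptor of prostaglandin E2, by 1.08. On the other side Ptgr1, a reductase that inactivates prostaglandins and leukotriene B4, changed by -2.59, the prostacyclin receptor gene Ptgir by -2.31, Ltb4r1 by -1.75 (SE 0.16), Mgst2, a microsomal transferase that can make leukotriene C4, by -1.71 and Ptger4, another receptor of prostaglandin E2, by -1.31. The receptor of leukotriene B4 thus fell together with Lta4h, in the same cells in which Alox5 rose.

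In marrow against blood mature neutrophils 11 rose and 10 fell, 61.8% of the 34 beside 40.6% of all genes. Among them Mgst2 (2.91) and Pla2g4a (0.88), the cytosolic phospholipase that releases arachidonic acid, rose, and Ptger4 (-1.27) fell. In spleen against blood mature neutrophils only Pla2g4a was called (0.54), 2.94% of the 34 beside 9.22% of all genes. Blood mature neutrophils against blood classical monocytes had 12 higher and 19 lower of 34, 91.2% beside 78.5% of all genes. Mgll, which hydrolyses monoacylglycerols, was 6.79 higher in the neutrophils and Ggt5 4.57 higher, and Mgst3 (-6.12), Ptgr1 (-6.03), Akr1b3 (-6.0), an aldo-keto reductase, Dpep2 (-5.89), a dipeptidase of leukotriene D4, and Cysltr1 (-4.01) were lower. Ptger2 was higher (1.42) and Ptgir (-3.24) lower in these neutrophils.

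In the monocyte and macrophage comparisons between 4 and 20 of the 34 were called. The share was 58.8% in marrow against blood classical monocytes, beside 45.5% of all genes. For spleen against blood classical monocytes it was 11.8% beside 19.1%, and for nonclassical against classical monocytes of spleen 29.4% beside 24.6%. Tumor macrophages had 23.5% beside 18.1% against tumor mature neutrophils, and 23.5% beside 26.3% against blood classical monocytes. In marrow against blood classical monocytes 6 rose and 14 fell, among them Mgst2 (4.08), Pla2g7 (-2.99) and Fpr2 (-2.14). In spleen against blood classical monocytes 3 rose and 1 fell, with Mgst2 at 2.76. In nonclassical against classical monocytes of spleen 4 rose, among them Ggt5 (1.41), and 6 fell, among them Mgst2 (-3.51) and Ptgr1 (-1.98). In tumor macrophages against tumor mature neutrophils 4 rose and 4 fell, with Akr1b3 at 3, Fpr2 at -2.18 and Mgll at -3.15. Against blood classical monocytes 5 rose and 3 fell in tumor macrophages, with Pla2g4a at 1.93 and Ptgr1 at -2.75.

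For each enzyme the genes whose levels ran most like its own were listed over the 14 groups of class and tissue, by Pearson's r of log2(CPM + 1) among 9708 genes. These groups share libraries and depth, and r is given as a description. Ptgs2 ran closest to Gna13 (r = 0.989), then to Tiparp, Tmem88, Pim1 and Acod1 (0.978), the enzyme that makes itaconate in activated myeloid cells. Alox5 ran closest to Slc2a3 (0.984), a glucose transporter, and with Mmp9 (0.968), a protease of neutrophil granules, and Mgll (0.964). Lta4h ran closest to Agtrap (0.956), Ptgs1 to Mgst2 (0.95), Alox5ap to Ccdc180 (0.947), Hpgd to Nxpe4 (0.973) and Ptges to Atg9a (0.877), the lowest of these values.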

How the data were processed

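Single-cell RNA and antibody tags were measured in 4 tissue libraries. The deposited values are raw UMI counts per gene and cell, made by the authors with Cell Ranger 7.0.1 on mm10, per the submitters' processing notes. Cells were tied to tissue by the barcode suffix, matched to the library number in the labels. The 7 genes, the gene lists and the class rules were chosen with earlier results of these data known. A cell took the hashtag with 20 or more counts that exceeded every other tag 3 times or more. UMIs were summed per hashtag, tissue and class (at least 20 cells, 5 in tumor). Genes with at least 100 UMIs over the sums were tested with edgeR 4.0.16 (quasi-likelihood, R 4.3.3) in 1 fit over all sums, with total UMIs as library sizes and a group needing 3 sums. Alternatives, DESeq2 1.42.0 among them, are given in the closing part. In the one with cells of several rules added, cells that also met a neutrophil rule counted as monocytes or macrophages. Cells that met both monocyte rules stayed out. Where a group had 10 UMIs or fewer and no call, no fold is given. Count ratios, shares and floors carry exact 95% limits that cover counting error only. Doublets were not called. Leaving out cells that met several rules does not remove all of them. A cell that met both neutrophil rules counted as immature, and a doublet with a cell outside the rules stayed in its class. Named genes of other lists are up to 4 called members per list and comparison, by absolute fold. The fit was tested on simulated counts.

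Same-numbered hashtags within a library are the same animal by the labels' protocols. Across libraries, deviations of same-numbered sums correlated above 0.1 in every pair of marrow and blood mature neutrophils (lowest r 0.148) and of marrow and blood classical monocytes (0.120), so these were also fitted with the hashtag as a block.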

Additional observations from a re-analysis of the deposited data

Results flagged for a closer look

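In 4 of 53 groups of 4 to 8 sums, 1 sum stood apart from the others by Dixon's criterion, which chance alone meets in about 1 in 20 groups. Lta4h was 104 CPM in the marrow mature neutrophils of hashtag 4 (117 cells, 49 UMIs), and the call against blood held in all 21 other settings. Lta4h was 40.5 CPM in the spleen mature neutrophils of hashtag 6, and without that hashtag the call against blood was lost (adjusted p = 0.123). Ptgs1 was 16.1 CPM in the spleen mature neutrophils of hashtag 4 (12 UMIs). Alox5 was 17.0 CPM in the spleen classical monocytes of hashtag 2 (6 UMIs).

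In 6 cases the same contrast differed between cell types or tissues by edgeR's test of the difference itself. The marrow minus blood difference was higher in mature neutrophils than in classical monocytes by 2.04 on the log2 scale for Ptges (adjusted p = 0.0253), by 1.08 for Alox5 (adjusted p = 0.0271) and by 0.82 for Alox5ap (adjusted p = 4.52e-05), where 24.8% of all genes were called. The value of Alox5ap was called in every setting run, that of Ptges was lost without hashtag 2, 7 or 8, and that of Alox5 without hashtag 1, 2, 4 or 5, with a stricter hashtag margin (0.67, adjusted p = 0.252) and after thinning (0.33, adjusted p = 0.94), and it was -0.12 with cells of several rules added. The mature minus immature difference was lower in spleen than in marrow, by -2.34 for Ptges (adjusted p = 0.00611), -1.40 for Ptgs1 (adjusted p = 0.00545) and -0.78 for Lta4h (adjusted p = 0.0311), where 13.9% of all genes were called. That of Ptges was lost without hashtag 8, that of Ptgs1 after thinning, and that of Lta4h without hashtag 1, 3, 4, 7 or 8 and in 2 more settings.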

How the results depend on the processing

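Of 1316 values of single enzymes under other settings, 1230 kept their direction and side of the threshold, 55 were no longer called, 21 became called, 6 changed sign, and 4, in nonclassical against classical monocytes of blood, had no main test and moved beyond their counting interval. The 6 were Ptgs1 in spleen against blood mature neutrophils (-0.010, thinned), Ptges in spleen against marrow immature neutrophils (-0.069, TMM factors), Alox5 in marrow against blood classical monocytes (0.063 thinned, 0.52 with cells of several rules), Lta4h in nonclassical against classical monocytes of spleen (0.085, thinned), and the neutrophil against monocyte difference of Alox5 (-0.12, cells of several rules). Calls in spleen against blood mature neutrophils numbered 1, and 0 with TMM factors, 0 to 1 when 1 hashtag was left out (0 without hashtag 1, 6 or 8), 3 with only the 2 groups in the fit, 2 with DESeq2 and 2 with the hashtag as a replicate block, where same-numbered sums did not all correlate above 0.1. The block changed no other call than Alox5 there and Alox5ap in marrow against blood mature neutrophils. Thinning to 1000 UMIs per cell left 3 of 5 calls in marrow against blood mature neutrophils, 0 of 1 in spleen against blood classical monocytes, 2 of 5 in nonclassical against classical monocytes of spleen, 1 of 3 in tumor macrophages against tumor mature neutrophils and 2 of 4 against blood classical monocytes. With only the 2 groups in the fit the calls were 1 in spleen against marrow immature neutrophils, 2 in spleen nonclassical against classical monocytes and 1 in tumor macrophages against tumor mature neutrophils, where a tumor S100 share of 3% also gave 1. The causes were not tested. The tests of differences were not run with DESeq2 or with only 2 groups. Tumor values rest on 5 to 15 cells per sum, and with single-hashtag cells only, 8 of 77 pooled levels moved by 1 SD of the sums or more.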
